A study of Triticum aestivum with 34 samples.

Results

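Gibberellin and brassinosteroid are growth hormones of plants, and 46 wheat gene models whose deposited description names one of them are described here in basal and central spikelets. The models were chosen by the words gibberellin, DELLA, GID1, brassinosteroid or BRASSINAZOLE in the description, in any case, together with a level of at least 1 FPKM in at least 2 of 34 libraries. FPKM is the number of sequenced fragments per kilobase of transcript, scaled to the size of the library. Of 162233 models in the table, 87 carried one of the words, 70 for gibberellin and 17 for brassinosteroid, and none carried words for both. The level rule kept 36 gibberellin and 10 brassinosteroid models. The 41 models it left out reached at most 1.26 FPKM in any library. Just outside the rule stood a gibberellin 3-oxidase on chromosome 6A and a gibberellin-responsive protein on 2D, with highest levels of 1.05 and 1.26 FPKM and 1 library each at the limit. Just inside stood the gibberellin 20-oxidases of 1B and 1D, with highest levels of 1.27 and 1.81 FPKM and 2 libraries each at the limit. At the other end, 19 of the 46 were at or above 1 FPKM in all 34 libraries.

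The samples came from the spikelets of the wheat (Triticum aestivum) genotype shimai22, which were untreated. The 2 positions on the ear, basal and central, were each sampled 6 times, 6, 9, 12, 15, 21 and 27 days past the terminal spikelet stage, at which the ear stops making new spikelets. The 12 groups of position and day held 3 libraries each. Basal day 15 and central day 21 were the exceptions with 2. The study asked how the less fertile basal spikelets differ from those in the middle of the ear. The labels did not say whether replicates were separate plants or how many spikelets were pooled, so the p-values measure the spread between these libraries only, which may be technical. Each library was bulk tissue, in which fewer cells of a type and less RNA per cell cannot be told apart.

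Bioactive gibberellin is made by a chain of enzymes that ends with the gibberellin 20-oxidases and 3-oxidases, and it is inactivated by the gibberellin 2-oxidases. The hormone binds the receptor GID1, the receptor then binds DELLA proteins, which hold back growth, and an F-box protein marks the DELLA proteins for destruction. In cereals the pathway is known for stem and ear elongation, for the dwarfing alleles of the wheat DELLA gene Rht, and for stamen development. Brassinosteroid is perceived at the cell surface by the receptor kinase BRI1 with co-receptor kinases of the BAK1 type, and the signal reaches transcription factors of the BZR1 type. In grasses it is known for organ elongation, leaf angle and grain size.

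The 36 gibberellin models fell into 6 roles. There were 6 synthesis oxidases of 12 that matched by description, 9 gibberellin 2-oxidases of 19, all 3 GID1 receptors, and 6 DELLA models of 21. The last 2 roles were 6 chitin-inducible gibberellin-responsive proteins of 7, a branch of the GRAS transcription factor family first described in rice, and 6 gibberellin-regulated proteins of the small, cysteine-rich GASA type of 8. The 10 brassinosteroid models were 2 of 8 that resembled BRI1, 2 of 3 that resembled the BAK1 co-receptor, and all 6 BPG2 models. BPG2 is a chloroplast GTP-binding protein named for the response of an Arabidopsis mutant to the synthesis inhibitor brassinazole, and it is known there for maturation of chloroplast ribosomal RNA. The brassinosteroid set was therefore mostly a set of chloroplast proteins. It held no enzyme of brassinosteroid synthesis. Of the 46 models, 2 were of the low-confidence class, and none joined several annotated genes.

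In the mean of the 6 days, 14 of 36 gibberellin models were higher in basal than in central spikelets, 4 were lower and 18 did not pass the test. Of all 71963 models tested, 33.5% passed in this comparison, 16% as higher and 17.5% as lower, so the share of higher calls among gibberellin models (38.9%) was above that background and the share of lower calls (11.1%) below it. The quasi-likelihood test of edgeR was used, with p-values adjusted by Benjamini-Hochberg over all tested models and a threshold of 0.05. Differences are log2 of basal over central throughout, given with their SE. The median difference of the gibberellin models was 0.09, against 0 over all tested models. The 14 higher models were 7 of the 9 gibberellin 2-oxidases, all 3 GID1 receptors and 4 of the 6 chitin-inducible gibberellin-responsive proteins. The 4 lower models were all synthesis oxidases. Among the 10 brassinosteroid models, none was higher, 3 were lower and the median was -0.11. At an unadjusted p under 0.05 none of the 10 was higher either, and DESeq2 and limma called none higher.

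**Figure D1:**
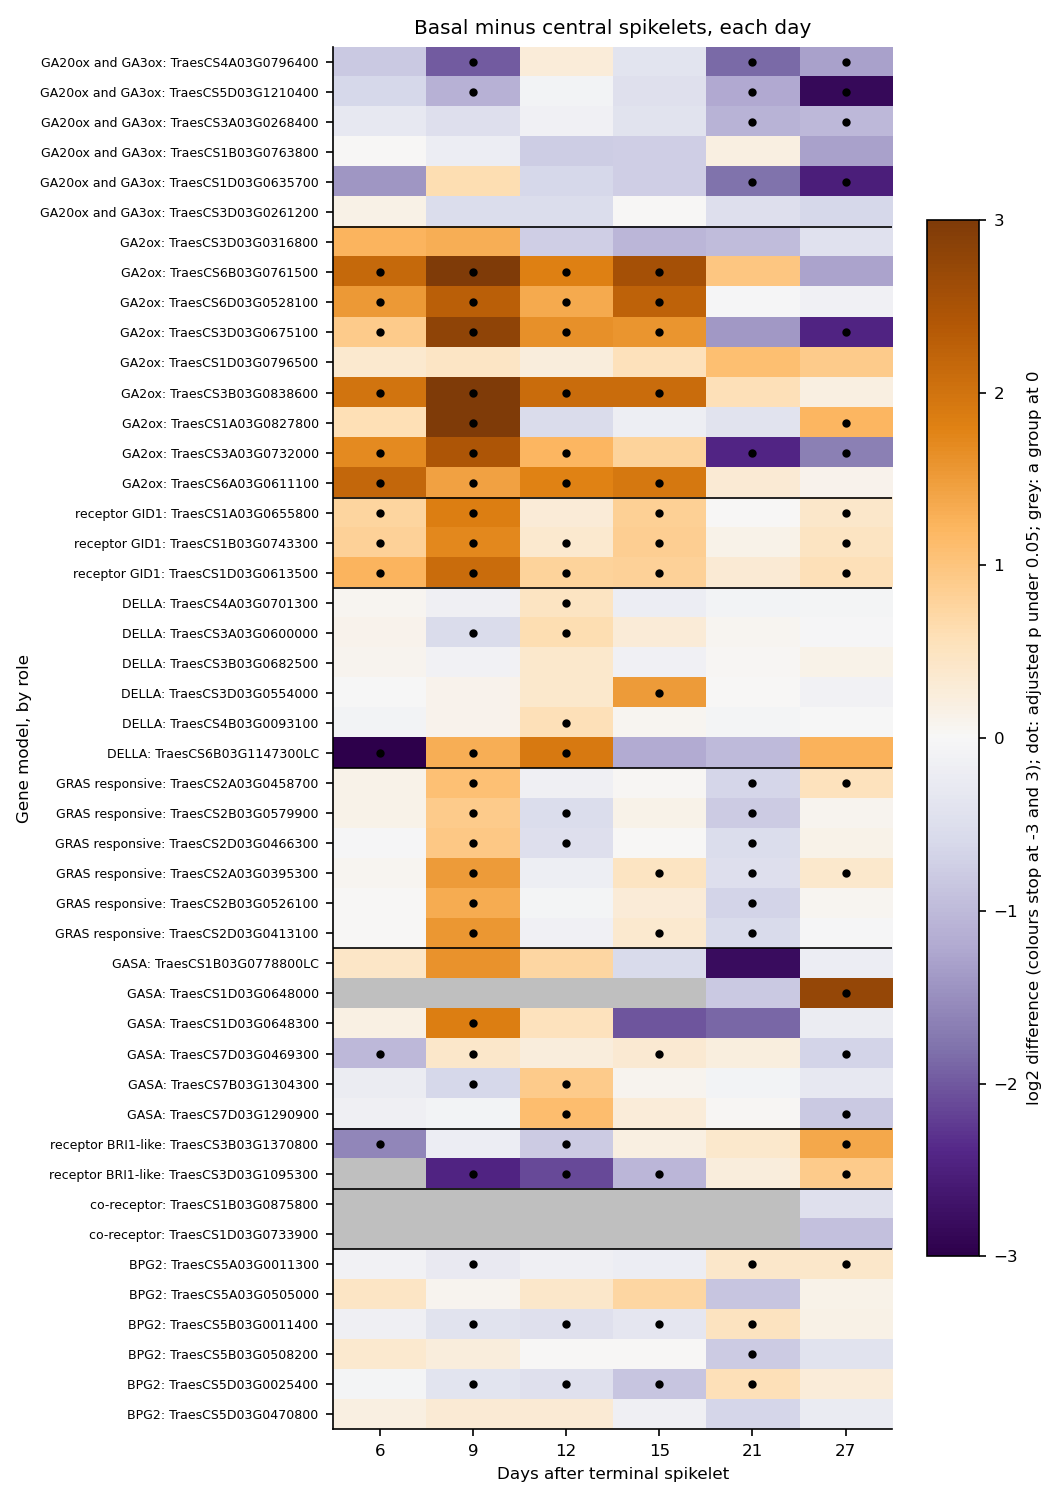
Log2 difference of basal minus central spikelets (colour, purple for lower and orange for higher in basal) for each of the 46 models (rows, grouped by role) on each day after the terminal spikelet stage (columns); a dot marks an adjusted p under 0.05 and grey a day on which a group was listed at 0. The GID1 rows and those of the 6 gibberellin 2-oxidases on chromosome groups 6 and 3 with early differences are orange on days 6 to 15, the synthesis oxidase rows are mostly purple on days 21 and 27, and the rows of GRAS responsive proteins turn from orange on day 9 to purple on day 21.

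The split by day was uneven. On day 9, 19 gibberellin models were higher and 4 lower with a median of 1, where 18.1% of all tested models were called higher and 18.2% lower, 36.3% in all, and the median of all was 0.01. On day 6, 9 were higher and 2 lower against 7.91% and 9.2% of all models, 17.1% in all. On day 12, 14 were higher and 2 lower against 13.6% and 14.5%, 28.1% in all. On day 15, 12 were higher and none lower against 8.89% and 13.8%, 22.7% in all, with 2 lower at an unadjusted p under 0.05. Day 21 went the other way, with 11 lower and none higher against 6.88% and 10.2%, 17.1% in all, and with 1 higher at an unadjusted p under 0.05. On day 27, 7 were higher and 8 lower against 11.3% and 10.4%, 21.7% in all. The test of a position difference that changes over the 6 days was passed by 26 of 36 gibberellin models, against 56.7% of all tested models.

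Other gene groups differed with position as well. All 17 models described as clock proteins were called on day 9, 12 higher and 5 lower in basal spikelets, against 8 on day 6. Of 74 chlorophyll a-b binding protein models, 68 were lower in basal spikelets on day 9 and 65 on day 15, while 42 were higher on day 21. Their summed level on day 9 ran from 1490 to 1720 FPKM over the basal libraries and from 4090 to 4540 FPKM over the central ones, and on day 21 from 10500 to 11400 and from 7230 to 8030 FPKM. Of 18 floral organ MADS-box models, 15 were lower in basal spikelets in the mean of 6 days, and none of the 18 was at 0 in any group. Of 31 secondary wall models, 21 were lower and 1 higher in basal spikelets on day 9 and 26 lower and 2 higher on day 15, against 20 higher and 1 lower on day 21. Of 19 meristem models, 6 were higher and 6 lower in the mean of 6 days. The hour of sampling was not given in the sources used here, and the part of these lists in the hormone results was not tested. Without day 9, the mean of the other 5 days gave 8 higher and 5 lower gibberellin models against 11.7% and 13.4% of all tested models, 25.1% in all, and no brassinosteroid model, with 1 of 10 lower at an unadjusted p under 0.05.

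The gibberellin synthesis oxidases were weakly expressed, with means over all libraries of 0.284 to 0.672 FPKM, and 4 of 6 were lower in basal spikelets in the mean of 6 days, with none higher at an unadjusted p under 0.05 either. The same counts came without day 9, with DESeq2 and with limma, and the median of the 6 was -0.79. Gibberellin 20-oxidase 1-D on chromosome 5D (TraesCS5D03G1210400), which makes the precursors of active gibberellin, had the smallest adjusted p. On day 27 its basal libraries stood at 0.06, 0.18 and 0.2 FPKM and its central libraries at 0.77, 1.07 and 1.61 FPKM. The groups did not overlap, and the difference on that day was -2.85 ± 0.43 (SE), which is 7.21-fold lower in basal spikelets (adjusted p = 2.13e-05). In the mean of 6 days it differed by -1.06 ± 0.16 (adjusted p = 9.2e-06).

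Its counterpart on chromosome 4A, gibberellin 20-oxidase 1-A (TraesCS4A03G0796400), was lower by -1.01 ± 0.16 in the mean of 6 days (adjusted p = 1.48e-05). On day 9 the central libraries reached 1.41, 1 and 1.39 FPKM, above every library of any other group except 1 of central day 27, while the basal libraries stayed at 0.38, 0.27 and 0.29 FPKM. On day 12 the basal libraries, at 0.66 to 0.85 FPKM, were above the central ones, at 0.56 to 0.64 FPKM, a difference that did not pass the test. A further gibberellin 20-oxidase on 1D (TraesCS1D03G0635700) differed by -2.52 ± 0.49 on day 27, where central libraries held 0.46, 1.02 and 1.81 FPKM and basal libraries 0.04, 0.28 and 0.22 FPKM. The copy on 1B (TraesCS1B03G0763800) did not pass the test on any day or in the mean (-0.47 ± 0.24, adjusted p = 0.146). Of the gibberellin 3-oxidases, which make the bioactive form, the 3A model (TraesCS3A03G0268400) was lower in the mean by -0.57 ± 0.20, and the 3D model (TraesCS3D03G0261200) gave -0.33 ± 0.21 with an adjusted p of 0.242.

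Between day 6 and day 27, both positions together, 4 of the 6 synthesis oxidases rose and none fell, also at an unadjusted p under 0.05, against 42.3% of all tested models that rose and 37.6% that fell. The 3A gibberellin 3-oxidase rose by a log2 difference of 2.67 ± 0.31, from 0.173 ± 0.074 to 0.833 ± 0.27 FPKM in basal spikelets (SD, n = 3) and from 0.23 ± 0.087 to 1.8 ± 0.17 FPKM in central spikelets. Of the 10 daily calls in this role, 4 were kept whichever single library was left out. The 6 that were not included all but 1 of the day 21 calls, and for the 3A model on day 21 the difference of -1.08 ranged from -1.60 to -0.62.

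**Figure D2:**
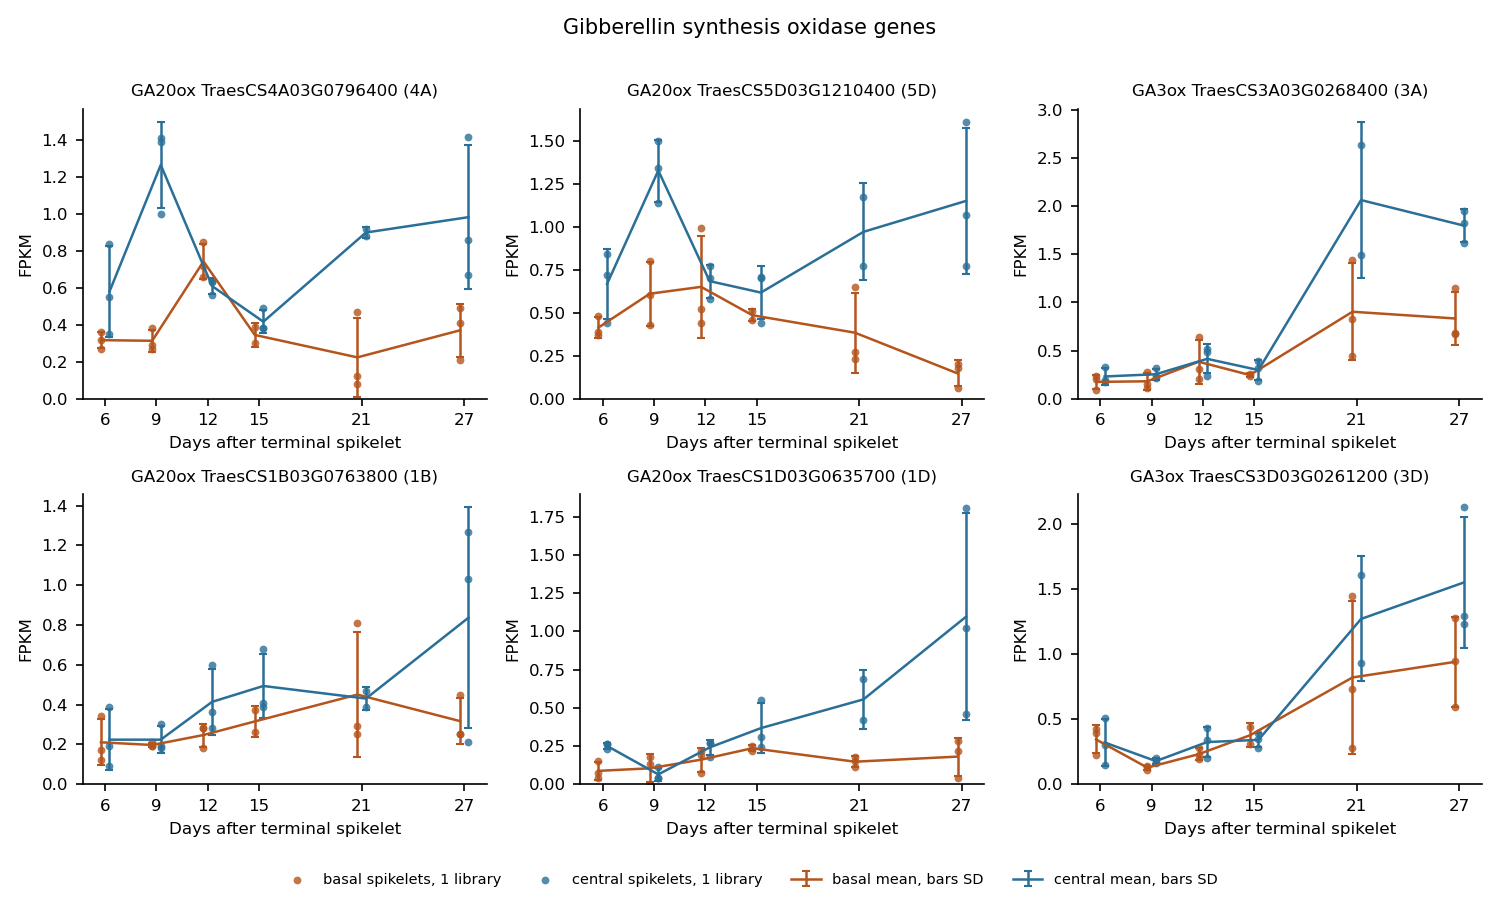
Levels of the 6 gibberellin synthesis oxidases in FPKM (y axis) by day after the terminal spikelet stage (x axis), with points for single libraries, lines through group means and bars of 1 SD, basal in brown and central in blue. Central means are above basal means on days 21 and 27 in all panels except TraesCS1B03G0763800 on day 21, and the highest mean, 2.06 FPKM, is the central one of TraesCS3A03G0268400 on day 21.

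The gibberellin 2-oxidases, which inactivate the hormone, were mostly called higher in basal spikelets on the first 4 sampling days. In the mean of 6 days 7 of 9 were higher in basal spikelets and none lower, with a median of 0.66. Of all tested models, 16% were higher and 17.5% lower in that comparison. No model of this role was called lower with DESeq2 or limma either, or at an unadjusted p under 0.05. The count of higher models was 7 with DESeq2 and 5 with no filter on low levels. With limma it was 6 on log2(FPKM + 0.1) and 5 on log2(FPKM + 1). A stricter filter kept only 2 of the 9, both called higher. On days 6, 9, 12 and 15 the counts were 6, 7, 6 and 5 higher and none lower. Of all tested models, 7.91%, 18.1%, 13.6% and 8.89% were higher on those days. The same 5 models were higher on each of those 4 days, a share not computed for all tested models. Day 21 had 1 lower and none higher, and day 27 had 1 higher and 2 lower. Without day 9, 5 of 9 were still higher. The calls of the synthesis oxidases lay mostly on other days. Of those 6 models, 2 were lower on day 9, none was called on days 6, 12 and 15, and 4 were lower on each of days 21 and 27.

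The 2-oxidases of chromosome group 6 held the highest levels of the role. The 6B model (TraesCS6B03G0761500, gibberellin 2-beta-dioxygenase 8-like) lies at chr6B:476168567-476171481. On day 6 its basal libraries stood at 4.35, 4.19 and 5.52 FPKM and its central libraries at 1.19, 1.47 and 0.7 FPKM. On day 9 the values were 3.93, 3.36 and 2.65 FPKM in basal against 0.36, 0.15 and 0.46 FPKM in central libraries, a difference of 3.34 ± 0.34 or 10.1-fold (adjusted p = 1.32e-08). The groups did not overlap on days 6, 9, 12 and 15. By day 21 all 5 libraries were at or below 0.4 FPKM and the groups overlapped. Over both positions the gene differed by -3.69 ± 0.29 between day 27 and day 6.

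The 6D model (TraesCS6D03G0528100, at chr6D:323904430-323907492) carried the highest level of the role, 7.13 ± 0.90 FPKM in basal against 2.75 ± 0.064 FPKM in central spikelets on day 12. Its mean difference was 1.21 ± 0.19. With 1 library left out it ranged from 1 to 2.51, the latter without central day 21 replicate 2 (0.34 FPKM), which leaves that group with a library listed at 0. Its daily difference was 2.28 ± 0.35 on day 9 and 2.24 ± 0.33 on day 15. The 6A model (TraesCS6A03G0611100, gibberellin-2-oxidase-A9, at chr6A:416228373-416231578) was higher by 1.29 ± 0.22 in the mean. All 3 were higher in basal spikelets on days 6, 9, 12 and 15, all 3 were not called on days 21 and 27, and all 3 fell between day 6 and day 27.

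A copy on each of 3A, 3B and 3D was higher in basal spikelets on days 6, 9 and 12, and the copies parted later. Of these 9 calls, 3 ended when 1 library was left out. That of the 3D copy on day 6, where the groups overlapped, ended with any of 13 libraries, that of the 3A copy on day 12 with any of 3 and that of the 3D copy on day 12 without basal replicate 2. The 3D call of day 15 ended without basal replicate 2 as well. The 3B model (TraesCS3B03G0838600, gibberellin 2-oxidase 3 isozyme B1, at chr3B:545850253-545852541) had the largest mean difference of all gibberellin models, 1.81 ± 0.18 (adjusted p = 1.29e-08). On day 9 its basal libraries held 1.41, 0.98 and 1.07 FPKM and its central libraries 0.06, 0.07 and 0.11 FPKM, a difference of 3.90 ± 0.40 or 15.0-fold. On day 27 its means were 0.6 ± 0.25 and 0.557 ± 0.065 FPKM and did not differ beyond their spread.

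The 3A model (TraesCS3A03G0732000, at chr3A:538153655-538156004) crossed over. It was higher in basal spikelets on day 9 by 2.45 ± 0.38 and lower on day 21 by -2.42 ± 0.44, when its basal libraries held 0.11, 0.21 and 0.23 FPKM and its central libraries 1.01 and 1.21 FPKM. The groups did not overlap on either day. Its mean of 6 days, 0.35 ± 0.17, did not pass the test (adjusted p = 0.111). The 3D model (TraesCS3D03G0675100, at chr3D:405656362-405658838) was higher by 2.81 ± 0.42 on day 9 and lower by -2.45 ± 0.34 on day 27, at 0.19, 0.14 and 0.33 FPKM in basal against 1.08, 1.59 and 1.22 FPKM in central libraries. The position difference changed over days in all 6 models of groups 6 and 3, where 56.7% of all tested models passed that test. The adjusted p-values were 4.58e-08 for the 3D and 9.03e-08 for the 3A model.

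**Figure D3:**
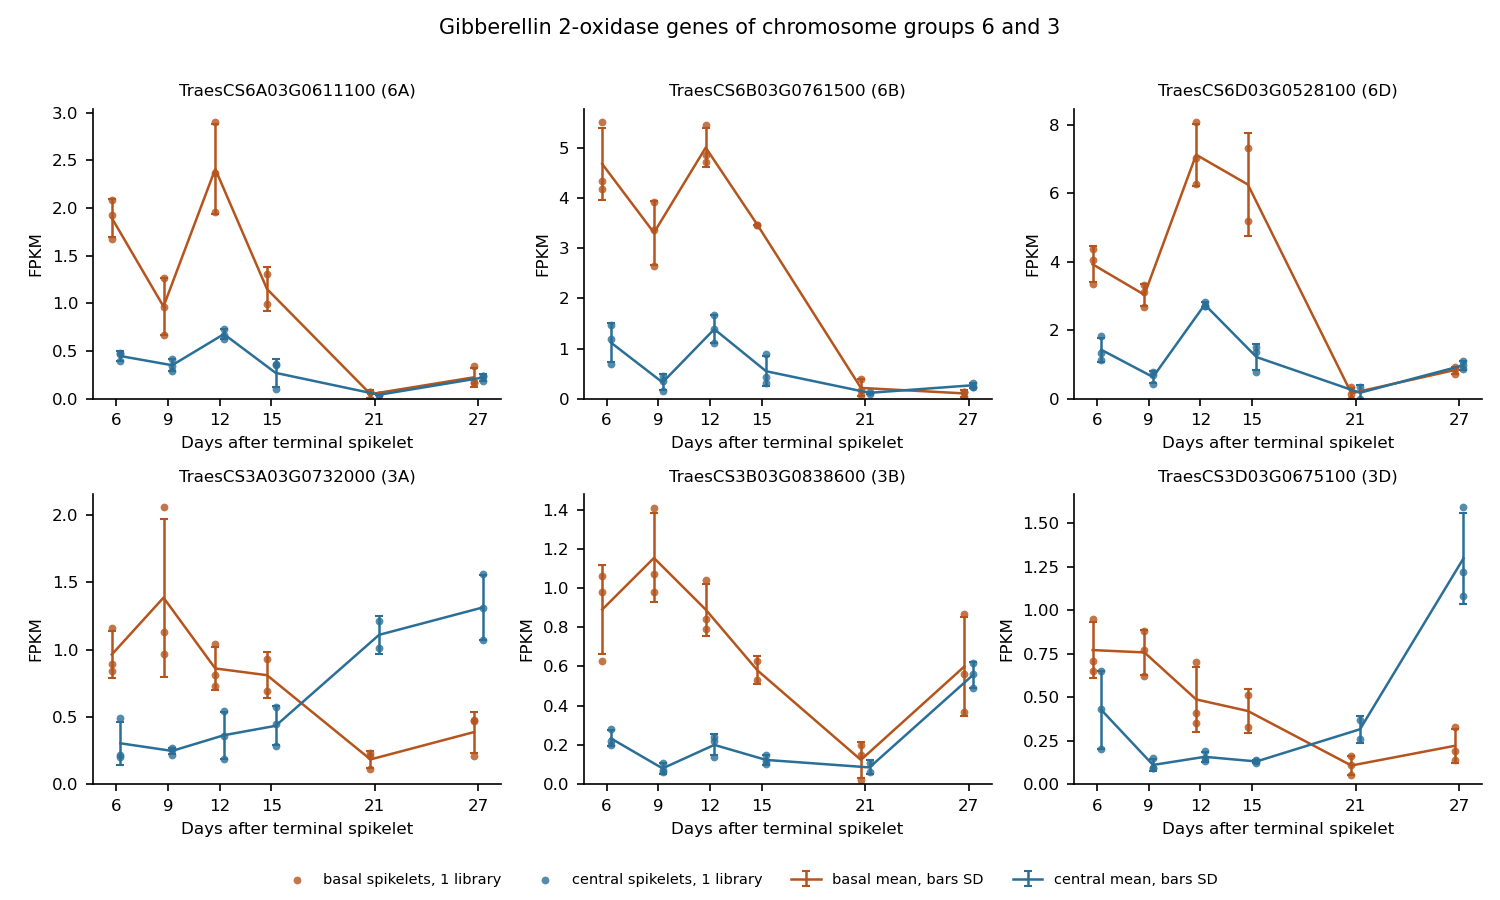
Levels of 6 gibberellin 2-oxidases in FPKM (y axis, scaled per panel) by day after the terminal spikelet stage (x axis), with points for single libraries, lines through group means and bars of 1 SD, basal in brown and central in blue. Chromosome group 6 in the upper row has basal means above central means to day 15 and low levels after it, and in the lower row the 3A and 3D models have central means above basal means on days 21 and 27.

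The remaining 3 gibberellin 2-oxidases were less alike. The 1A model (TraesCS1A03G0827800) was near 0 in central spikelets on day 9, at 0.04, 0 and 0.02 FPKM against 0.2, 0.27 and 0.15 FPKM in basal spikelets, and its largest level was 3.3 ± 0.33 FPKM in basal spikelets on day 27 against 1.53 ± 0.65 FPKM in central spikelets (adjusted p = 0.00258). Its mean difference of 0.66 ± 0.24 was not called without day 9 (0.14, adjusted p = 0.694). The 1D model (TraesCS1D03G0796500) was higher in the mean by 0.60 ± 0.20 and passed on no single day. The 3D model described as 1-like (TraesCS3D03G0316800) was not called in the mean (-0.11 ± 0.24) or on any day, and it rose between day 6 and day 27 by 3.71 ± 0.31. Of the 28 daily calls in this role, 24 were kept whichever library was left out.

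All 3 GID1 genes, which encode the gibberellin receptor, were higher in basal spikelets in the mean of 6 days. The differences were 0.69 ± 0.06 for the 1A gene (TraesCS1A03G0655800), 0.73 ± 0.06 for the 1B gene (TraesCS1B03G0743300) and 0.97 ± 0.06 for the 1D gene (TraesCS1D03G0613500), or 1.61-fold, 1.66-fold and 1.95-fold. They stayed higher without day 9, by 0.46, 0.53 and 0.74, and DESeq2 and limma called all 3. The 1D gene at chr1D:348966373-348969483 had the smallest adjusted p of all 46 models in this comparison (7.45e-13).

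On day 9 the 1D gene stood at 31.7, 26.48 and 27.23 FPKM in basal and at 6.75, 6.93 and 6.47 FPKM in central libraries, a difference of 2.09 ± 0.14 or 4.25-fold. On day 6 the values were 26.96, 21.63 and 23.6 FPKM against 10.22, 10.49 and 11.55 FPKM, a difference of 1.24 ± 0.14. The groups did not overlap on days 6, 9, 12, 15 and 27. On day 21 the values came close, 15.04, 12.24 and 14.86 FPKM in basal against 12.41 and 12.41 FPKM in central libraries, and none of the 3 GID1 genes was called, with 1 higher at an unadjusted p under 0.05. All 3 genes had their lowest basal means on day 21, at 8.27 FPKM for the 1A and 6.92 FPKM for the 1B gene, and their lowest central means on day 9, at 5.03, 4.71 and 6.72 FPKM. Of the 14 daily calls in this role, 11 were kept whichever library was left out.

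Of the 6 DELLA genes, whose proteins hold back gibberellin responses, none was called in the mean of 6 days, none at an unadjusted p under 0.05 and none with DESeq2 or limma, and the differences ran from -0.18 to 0.31 with a median of 0.07. The 2 most abundant were Rht-A1 on chromosome 4A (TraesCS4A03G0701300) and the DELLA gene of 4B (TraesCS4B03G0093100), with means over all libraries of 20.1 and 26.0 FPKM. On day 12, 4 of the 6 were higher in basal spikelets and none lower, where 13.6% of all tested models were called higher. At an unadjusted p under 0.05, 5 were higher and none lower. Of the 4 calls, those of TraesCS3A03G0600000 and TraesCS6B03G1147300LC ended when basal replicate 2 or central replicate 3 of that day was left out. Over the 6 days, 5 of the 6 were called on at least 1 day, against 69.7% of all tested models. On day 12 the 4B gene stood at 30.69, 35.42 and 32.6 FPKM in basal against 23.41, 19.27 and 22.29 FPKM in central libraries, with no overlap and a difference of 0.58 ± 0.12 (adjusted p = 0.000481). The 4A gene was higher on that day by 0.47 ± 0.10. Its levels on day 15 did not differ beyond their spread, at 14.2 ± 0.46 FPKM in basal (SD, n = 2) and 14.9 ± 0.65 FPKM in central spikelets (SD, n = 3).

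The 3 DELLA genes described as SLN1-like on chromosome group 3 had means over all libraries of 2.09 to 2.95 FPKM. The 3A gene (TraesCS3A03G0600000) was lower in basal spikelets on day 9 (-0.55 ± 0.19) and higher on day 12 (0.61 ± 0.19). The 3D gene (TraesCS3D03G0554000) was higher on day 15 by 1.51 ± 0.51, when the central libraries spread from 0.41 to 2.54 FPKM, and leaving out either basal library or central replicate 1 or 2 of that day ended the call. The low-confidence DELLA model of 6B (TraesCS6B03G1147300LC) was the most variable, with a difference of -3.36 ± 0.71 on day 6, 1.29 ± 0.51 on day 9 and 1.90 ± 0.58 on day 12, and the day 9 call was ended by leaving out any of 22 libraries. Its basal libraries of day 27 alone ran from 2.28 to 11.15 FPKM. Between day 6 and day 27, 5 of the 6 DELLA models rose and none fell, also at an unadjusted p under 0.05. Of all tested models, 42.3% rose and 37.6% fell in that comparison. Of the 8 daily calls in this role, 3 were kept whichever library was left out.

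The chitin-inducible gibberellin-responsive proteins are GRAS proteins that rice cells make within a short time of gibberellin or chitin treatment. All 6 models were called in one direction on day 9 and in the other on day 21. None was called on day 6, at an unadjusted p under 0.05 either, all 6 were higher in basal spikelets on day 9 (0.90 to 1.56), and all 6 were lower on day 21 (-0.78 to -0.49). On days 12, 15 and 27 only 2 of the 6 models were called, and not the same ones. On day 12, TraesCS2B03G0579900 and TraesCS2D03G0466300 were lower. On day 15, the 2-like models TraesCS2A03G0395300 and TraesCS2D03G0413100 were higher. On day 27, TraesCS2A03G0395300 and TraesCS2A03G0458700 were higher. Of the day 21 calls, 3 ended when 1 library was left out, that of TraesCS2D03G0466300 with any of 16 libraries, that of TraesCS2A03G0395300 with any of the 5 libraries of the day and that of TraesCS2A03G0458700 with central replicate 1 of the day. In central spikelets the 2D copy (TraesCS2D03G0413100, 2-like) held 23.68, 24.72 and 27.34 FPKM on day 6, 7.79, 6.59 and 6.86 FPKM on day 9 and 21.99, 20.21 and 19.17 FPKM on day 12. In basal spikelets it held 20.5, 20.34 and 21.8 FPKM on day 9. The difference on day 9 was 1.56 ± 0.12 (adjusted p = 6.95e-11), with no overlap between the groups. On day 21 both positions were low, 4.54, 4.14 and 5.21 FPKM in basal against 7.64 and 7.49 FPKM in central libraries, and basal spikelets were lower by -0.57 ± 0.14.

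The 2B copy (TraesCS2B03G0526100), the most abundant of the role with means of 23.3 FPKM in basal against 21.4 FPKM in central libraries, differed by 1.33 ± 0.11 on day 9 and by -0.67 ± 0.12 on day 21. In the mean of 6 days 4 of 6 models were higher, by 0.16 to 0.30. Of these, TraesCS2A03G0458700 on 2A had an adjusted p (edgeR) of 0.0497 and did not pass with any other tool, scaling or filter. Without day 9 none of the 6 was called, and 2 were lower at an unadjusted p under 0.05. The 2A copy (TraesCS2A03G0395300) went from 0.30 ± 0.06 to 0.06 ± 0.07 when day 9 was left out, and the 2B copy from 0.16 to -0.07. The comparison of basal day 9 with central day 6, which sets an older basal sample beside a younger central one, called 1 of 6 lower and none higher, with none higher at an unadjusted p under 0.05, where 13.2% of all tested models were called higher and 10.8% lower, 24% in all. The GID1 genes were higher in that comparison too, by 0.74, 0.95 and 1.34, and so were 5 of 9 gibberellin 2-oxidases. Of the 18 daily calls of the gibberellin-responsive proteins, 9 were kept whichever library was left out, among them all 6 of day 9.

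**Figure D4:**
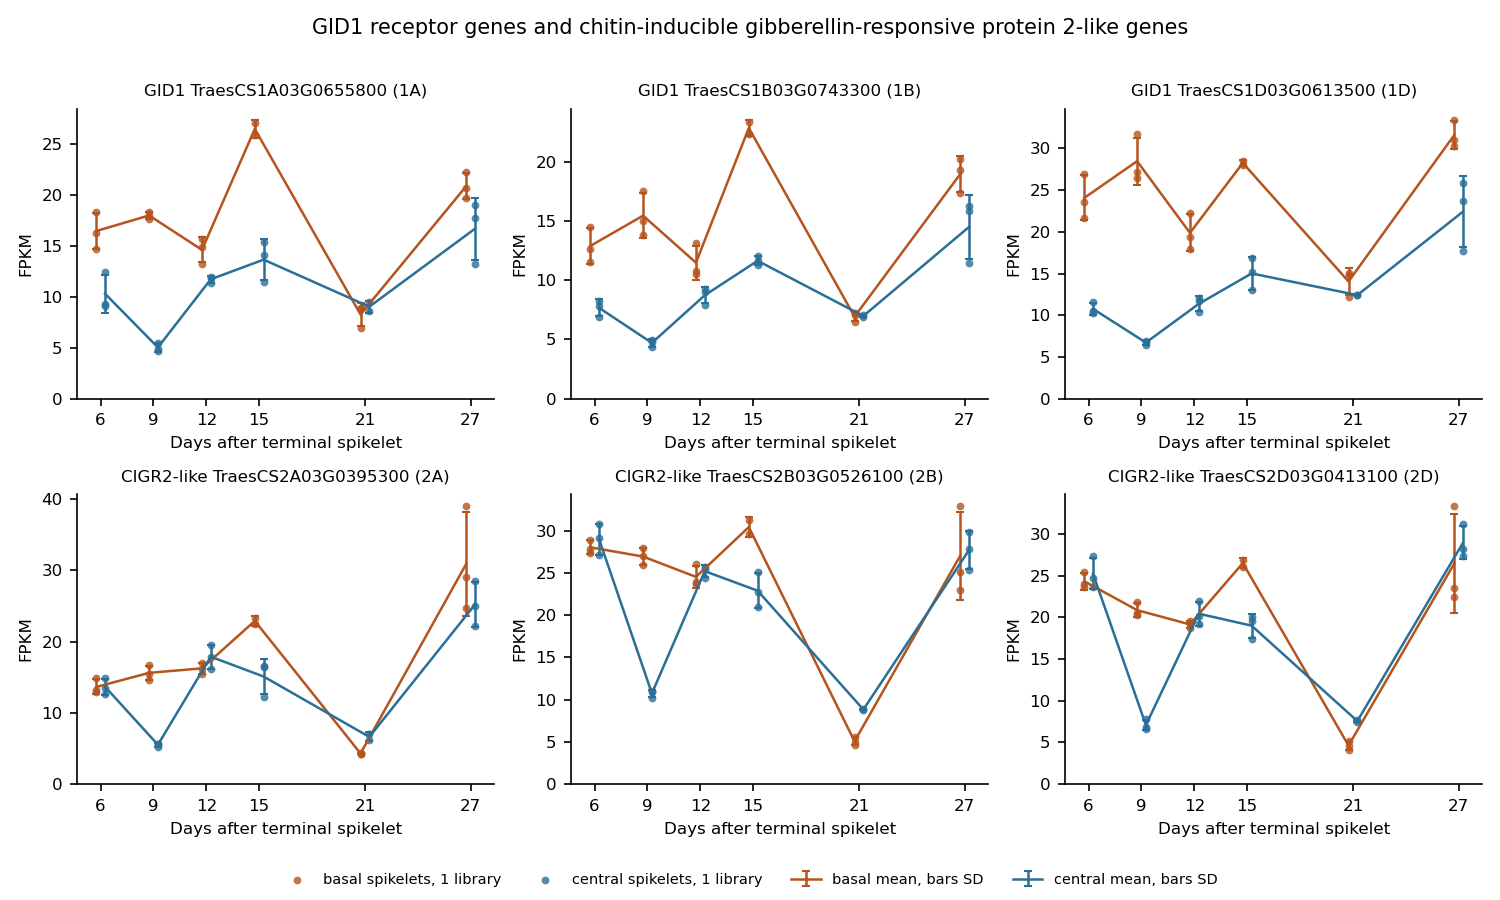
Levels in FPKM (y axis) by day after the terminal spikelet stage (x axis) of the 3 GID1 receptor genes (upper row) and the 3 chitin-inducible gibberellin-responsive protein 2-like genes (CIGR2-like, lower row), with points for single libraries, lines through group means and bars of 1 SD, basal in brown and central in blue. All 6 genes have their lowest central level on day 9 or day 21, and the lower row overlaps between the positions on day 6 and separates on day 9.

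The GASA type genes, small secreted proteins that often respond to gibberellin, were not called by position in the mean of 6 days. None of 6 passed at an unadjusted p under 0.05 either, or with DESeq2 or limma, and the median was -0.06. Without day 9, 1 of 6 was called lower and none higher, where 13.4% of all tested models were lower. Between day 6 and day 27 all 6 were called, 5 as fallen, where 79.9% of all tested models were called and 37.6% as fallen. The most abundant, gibberellin-regulated protein 9-like on 7B (TraesCS7B03G1304300, at chr7B:754112909-754113800), held 46.29 to 65.96 FPKM over the basal and 65.73 to 77.03 FPKM over the central libraries of day 6, and 9.01 to 10.76 and 11.48 to 11.71 FPKM on day 21. On day 9 it was lower in basal spikelets by -0.61 ± 0.18 and on day 12 higher by 0.91 ± 0.18, at 48.08, 67.88 and 51.57 FPKM against 29.27, 28.03 and 30.68 FPKM. Its copy on 7D (TraesCS7D03G1290900) was higher on day 12 by 1.12 ± 0.15 and lower on day 27 by -0.81 ± 0.16.

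Gibberellin-regulated protein 5-like on 7D (TraesCS7D03G0469300) differed most on day 6, when its basal libraries stood at 15.49, 12.84 and 14.49 FPKM and its central libraries at 31.8, 28.77 and 29.97 FPKM (-1.01 ± 0.11). By day 9 the order had turned, at 33.0 ± 2.8 FPKM in basal against 24.8 ± 0.93 FPKM in central spikelets (0.42 ± 0.11). The 11-like model TraesCS1D03G0648300 on 1D held 5.83 ± 0.48 and 5.46 ± 0.11 FPKM at the basal and central position on day 6, and 0.0633 ± 0.11 and 0.08 ± 0.075 FPKM on day 27. On day 9 it was higher in basal spikelets by 1.84 ± 0.38. Its neighbour TraesCS1D03G0648000 ran opposite in time. It was listed at 0 in all libraries up to day 15, then held 5.77, 2.27 and 3.07 FPKM in basal against 8.52 and 5.54 FPKM in central libraries on day 21. On day 27 it was higher in basal spikelets by 2.72 ± 0.83, a call that leaving out any of 3 libraries ended. Of the 10 daily calls of GASA models, 8 were kept whichever library was left out. The 2 models lie at chr1D:367484142-367485094 and chr1D:367537113-367537982, and the counts of near-identical copies may share reads.

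Of 26 further gibberellin pathway models found by enzyme or protein names, 2 were higher and 7 lower in the mean of 6 days, with a median of -0.12. The smallest adjusted p among the lower ones was that of a GAMYB gene on 6A (TraesCS6A03G0327600, -1.37 ± 0.18, adjusted p = 1.5e-06), a transcription factor known in cereals as a gibberellin target in the aleurone and in anthers. Its mean was 1.16 FPKM in basal against 3.46 FPKM in central libraries. Of 7 GAMYB models, 4 were lower and 3 not called. The 26 also include a GAMYB-binding protein, which was not called. The upstream synthesis enzymes gave 1 lower of 5 copalyl diphosphate synthases, 2 lower of 5 ent-kaurene and kaurenoic acid oxidases, and 1 higher of 3 ent-kaurene synthases. The smallest adjusted p among the higher ones was that of the F-box gene GID2-like on 3D (TraesCS3D03G0104000, 0.19 ± 0.05, adjusted p = 0.00316), whose protein marks DELLA proteins for destruction. None of 3 SPINDLY models, which encode a regulator of DELLA proteins, passed the test. Of 99 anther and pollen models, 10 were lower and 1 higher in basal spikelets in the mean of 6 days, where 17.5% of all tested models were lower and 16% higher. Their part in the GAMYB values was not tested.

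Among the brassinosteroid models, 6 of 10 were called on at least 1 day, where 69.7% of all tested models were, and 5 of 10 were higher on one day and lower on another, where 19.8% of all tested models were. On days 9 and 12, 4 of the 10 were lower and none higher, and on day 15, 3 were lower and none higher, with none higher at an unadjusted p under 0.05 on those days. On day 21, 3 were higher and 1 lower, with 3 higher and 5 lower at an unadjusted p under 0.05. On day 27, 3 were higher and none lower, also at an unadjusted p under 0.05. On day 6, 1 was lower and none higher, with 1 higher at an unadjusted p under 0.05. The position difference changed over days in 7 of 10, against 56.7% of all tested models. Of all tested models, 9.2%, 18.2%, 14.5% and 13.8% were lower on days 6, 9, 12 and 15. On days 21 and 27, 10.2% and 11.3% of them were higher and 6.88% and 10.4% lower. The brassinosteroid shares are over 10 models, so 1 model moves them by 10%.

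The receptor models of chromosome group 3, which resemble BRI1, both rose between day 6 and day 27, and both differed by position in a way that changed over the days. The 3D model (TraesCS3D03G1095300, at chr3D:590485731-590489574) was listed at 0 in the 3 basal libraries of day 6 and at 0.01, 0.01 and 0.02 FPKM in the central ones, so no fold is given for that day. On day 12 it stood at 0.09, 0.25 and 0.17 FPKM in basal against 0.74, 0.69 and 0.82 FPKM in central libraries, a difference of -2.12 ± 0.36 (adjusted p = 9.48e-05). On day 15 the values were 1.51 and 1.47 FPKM against 2.89, 2.61 and 3.04 FPKM. The groups did not overlap on days 6, 9, 12 and 15, they overlapped on day 21, and on day 27 basal spikelets were higher by 0.90 ± 0.32 with overlapping libraries. Its mean of 6 days was called lower (-1.67 ± 0.48, adjusted p = 0.00764), a fitted value that includes the group at 0, and it was not called without day 9 (-1.52, adjusted p = 0.0547).

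The 3B model (TraesCS3B03G1370800, at chr3B:802135741-802139463) was not called in the mean (-0.10 ± 0.11, adjusted p = 0.522). It was lower in basal spikelets on day 6 (-1.58 ± 0.36), at 0.09, 0.1 and 0.11 FPKM against 0.26, 0.34 and 0.35 FPKM, and on day 12 (-0.79 ± 0.22). It was higher on day 27 (1.38 ± 0.22), at 2.9, 2.49 and 2.86 FPKM against 0.64, 1.58 and 1.14 FPKM. Both models had their highest levels on day 15, 4.95 ± 0.23 FPKM in basal against 4.0 ± 0.49 FPKM in central spikelets for the 3B model. In the comparison of basal day 9 with central day 6 the 3B model was higher by 1.14 ± 0.27 and the 3D model was not called (0.66 ± 1.19). The 3D model was called lower on days 9 and 15 and the 3B model was not, and neither was called on day 21. Chlorophyll-binding and secondary wall models were mostly lower in basal spikelets on days 9 and 15 and mostly higher on day 21, as given above. Their part in the receptor values was not tested. Of the 7 daily calls in this role, 3 were kept whichever library was left out. The day 27 call of the 3D model was ended by leaving out any of 24 libraries.

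The co-receptor models, described as resembling BRI1-associated receptor kinase 1, were late genes. The 1B model (TraesCS1B03G0875800) was listed at 0 in all libraries of 8 groups and the 1D model (TraesCS1D03G0733900) in all libraries of 7. On day 27 the 1B model held 1.25, 2.25 and 0.69 FPKM in basal against 2.67, 2.61 and 0.9 FPKM in central libraries. The 1D model held 1.73, 3.24 and 0.3 FPKM and 4.99, 3.67 and 2 FPKM. The groups overlapped for both. Neither was called on any day or in the mean. On day 21 both were lower in basal spikelets at an unadjusted p under 0.05, with overlapping libraries. Since groups at 0 enter the mean, its fitted value is not given.

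The BPG2 models formed 2 sets on chromosome group 5 that ran differently. The set near the start of the chromosomes (TraesCS5A03G0011300, TraesCS5B03G0011400 and TraesCS5D03G0025400) had its highest group means on day 12 at both positions, and its means over all libraries were 3.73 to 7.49 FPKM. The 5D gene at chr5D:5906666-5910254 stood at 4.15, 4.17 and 4.71 FPKM in basal against 6.01, 5.62 and 5.41 FPKM in central libraries on day 9, a difference of -0.38 ± 0.13. On day 15 the values were 4.86 and 4.12 FPKM against 7.34, 7.6 and 7.5 FPKM, a difference of -0.85 ± 0.14 (adjusted p = 6.48e-05). On day 21 the order turned, at 6.68, 6.01 and 6.35 FPKM against 4.95 and 4.37 FPKM (0.58 ± 0.14). The groups did not overlap on days 9, 12, 15 and 21.

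The 5A and 5B genes of this set were lower on day 9 as well, by -0.28 ± 0.10 and -0.40 ± 0.10, and higher on day 21, by 0.40 ± 0.11 and 0.50 ± 0.11. The day 21 calls of the 5A, 5B and 5D genes all ended without central replicate 2 of that day, with adjusted p-values (edgeR) of up to 0.317, 0.111 and 0.105, and that of the 5A gene also without basal replicate 1. On day 9 the call of the 5A gene ended when any of 4 libraries was left out and that of the 5D gene with any of 3, while that of the 5B gene was kept. The day 12 calls of the 5B and 5D genes, lower by -0.45 and -0.46, were kept too. So was the day 27 call of the 5A gene, higher by 0.40. In the mean of 6 days the 5B and 5D genes were lower by -0.11 ± 0.04 and -0.15 ± 0.05 and the 5A gene was not called (0.01 ± 0.04). With no filter on low levels, or without day 9, neither passed. The other set (TraesCS5A03G0505000, TraesCS5B03G0508200 and TraesCS5D03G0470800) had its highest group means on day 6 at both positions and fell between day 6 and day 27 in all 3, by -1.29 ± 0.18, -0.72 ± 0.15 and -0.63 ± 0.13. The 5B gene was the only one of the 3 called on any day, with -0.78 ± 0.27 on day 21, a call that ended when any single library of day 21 was left out. Of the 12 daily calls of BPG2 models, 5 were kept whichever library was left out. The 3 models of the first set, like the chlorophyll-binding models, were lower in basal spikelets on day 9 and higher on day 21, and the part of those models in this was not tested.

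**Figure D5:**
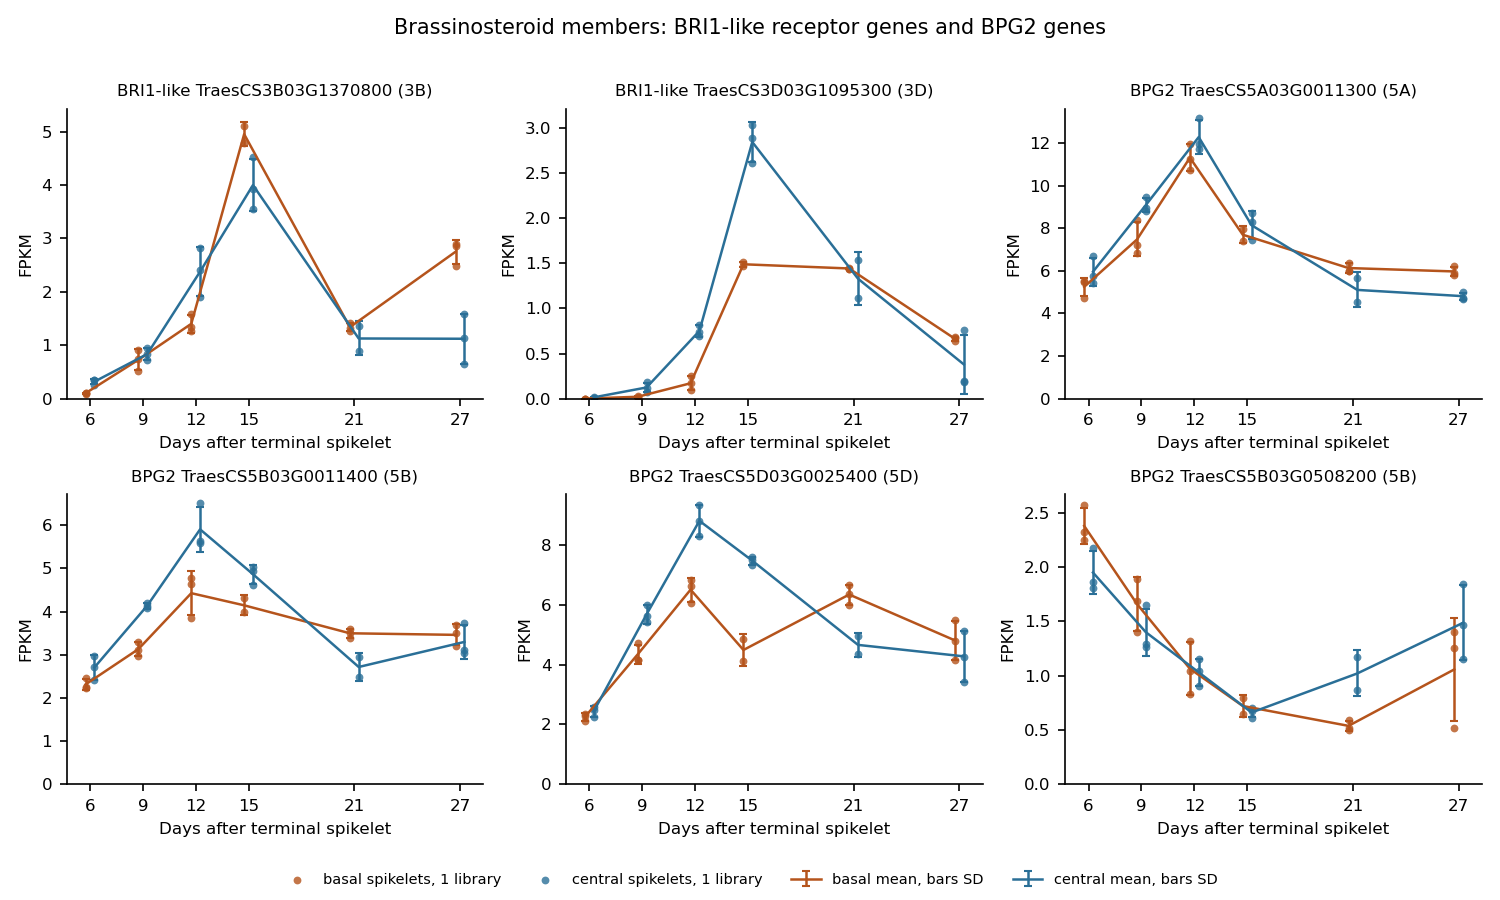
Levels in FPKM (y axis) by day after the terminal spikelet stage (x axis) of the 2 BRI1-like receptor models and 4 of the 6 BPG2 models, with points for single libraries, lines through group means and bars of 1 SD, basal in brown and central in blue. The BRI1-like models peak on day 15, and the first 3 BPG2 panels have central means above basal means to day 15 and below them on day 21.

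Of 91 further brassinosteroid pathway models found by enzyme or protein names, 17 were higher and 21 lower in the mean of 6 days with a median of 0.02. These are shares of 18.7% and 23.1% against 16% and 17.5% of all tested models. Without day 9, 11 were higher and 16 lower, shares of 12.1% and 17.6% against 11.7% and 13.4%. Among the synthesis enzymes, both delta(24)-sterol reductase models were higher, by 0.25 and 0.29. All 3 CYP724B1 models, cytochromes P450 of an early step known from rice, were higher, by 0.86 to 1.17, and the 2D copy (TraesCS2D03G0759600) had the smallest adjusted p (3.6e-11) with means of 6.73 FPKM in basal against 3.37 FPKM in central libraries. Of 9 CYP85A1 models, which catalyse the last steps to the active hormone, 6 were lower, by -1.35 to -0.27. The 1A copy (TraesCS1A03G0529000) had the smallest adjusted p among lower models (4.46e-08) with a difference of -1.16 ± 0.12. Of 3 CYP90B1 models 2 were lower, and none of the 2 CYP90A1, 1 CYP90D2 and 1 DET2 models was called. Of 9 CYP734A models, enzymes that inactivate the hormone, 2 were higher and 4 lower. The CYP734A model TraesCS7B03G0700100 differed by 2.29 ± 0.18 (adjusted p = 1.13e-10). All 3 models of the BRI1 kinase inhibitor, which keeps the receptor inactive, were lower in the mean of 6 days, at mean levels of 0.721 to 1.39 FPKM. The 5A model (TraesCS5A03G0604200) turned over time. It was lower on day 9 (-2.35, adjusted p = 4.82e-09) and higher on day 21 (0.68, adjusted p = 0.016) and day 27 (1.33, adjusted p = 0.000406). The 5B and 5D models were lower on days 9 and 12 and not called on days 21 and 27. Of 16 somatic embryogenesis receptor kinases, the co-receptor family to which BAK1 belongs, 6 were higher in the mean of 6 days, by at most 0.34. Each of these was higher on day 9, by 0.43 to 1.13. On day 21 only the 2A model among them (TraesCS2A03G0801300) was called, as lower (-0.31, adjusted p = 0.00845). These families were set apart after their values were seen, and no test of a family was made.

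Over time, 28 of 36 gibberellin models differed between day 6 and day 27, 20 as risen and 8 as fallen, and 9 of 10 brassinosteroid models did, 6 as risen and 3 as fallen. Of all tested models, 79.9% were called in that comparison, 42.3% as risen and 37.6% as fallen. The steepest fall of a gibberellin model was that of the 1D GASA gene TraesCS1D03G0648300 (-6.19 ± 0.38), and the steepest rise among models detected in all groups compared was that of the 1A gibberellin 2-oxidase TraesCS1A03G0827800 (3.80 ± 0.28). Basal day 9 against central day 6 called 8 of 36 gibberellin models higher and 6 lower. Of the 10 brassinosteroid models it called 3 higher and none lower, with none lower at an unadjusted p under 0.05. Of all tested models, 13.2% were higher and 10.8% lower, 24% in all. That comparison shares its libraries with those of days 6 and 9.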

How the data were processed

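Total RNA of 34 spikelet libraries was sequenced. The authors deposited 1 table with, per the file headers, whole-number estimated counts without normalization and FPKM per library, the latter scaled by the authors for length and library total. The submitters' processing notes name Bowtie 0.12.2 and mouse builds. Aligner, counting tool, strand setting and wheat build: not given in the sources used here. The positions of 55844 tested high-confidence models were compared with an annotation: 93.9% fell on a gene of the assembly IWGSC CS RefSeq v2.1, and 6.6% did so with shifted positions, and 45 of the 46 members did. Coordinates are given in that build.

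Library totals were 95144712 to 126139684 counts. Small counts of up to 100 stood at multiples of 4 in 31.4 to 32.9% of cases, against 25% if even, so the number of fragments behind a value is uncertain. No replicate pair shared equal counts at more than 6.52% of models, and replicates correlated at 0.9616 to 0.9795. Tests covered the 71963 models that reached 1 FPKM in 2 or more libraries. Counts were fitted in edgeR 4.0.16 (R 4.3.3) with TMM and 12 group means. The quasi-likelihood test used 0.05 as the threshold on Benjamini-Hochberg adjusted p-values within a comparison, with no fold threshold. SE is the absolute log2 difference over the square root of the test's F value. The mean of 6 days, each day, the change over days, day 27 minus day 6 and basal day 9 minus central day 6 were tested. On simulated data, 13.4%, 86.6% and 100% of 1.5-fold, 2-fold and 4-fold changes were recovered on day 9 with 8.9% false calls. In the mean of 6 days 98.5%, 100% and 100% were recovered with 4.33% false calls, both over 71963 models. Per fold, 66 or 67 models were changed, all with a mean count over 100. The spread was assumed rather than taken from these data. The shares therefore do not cover models with lower counts.

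Members and gene lists were chosen with earlier results of these data known. Genes were named by the smallest adjusted p per role, the 6 largest differences per hormone, the largest per day, the 3 highest levels and copies on other subgenomes, and for other pathway genes by the smallest adjusted p per direction and hormone. Every other member named was chosen after its values were seen, to complete its role. Alternatives were DESeq2 1.42.0, its size factors in edgeR, no filter, a stricter filter (mean FPKM of at least 1), limma 3.58.1 on log2(FPKM + 1) and log2(FPKM + 0.1), a replicate block, leaving out each library and leaving out day 9. Wheat carries related subgenomes, and how reads shared by near-identical copies or overlapping genes were counted was not given, so values of single copies carry that limit.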

Additional observations from a re-analysis of the deposited data

Results flagged for a closer look

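Each gene below was set apart by 1 criterion, a test that the difference between basal and central spikelets itself changed over the 6 days (edgeR, Benjamini-Hochberg adjusted p under 0.05, against 56.7% of all tested models). Groups held 2 or 3 libraries, too few to look for single outlying libraries. Their cause was not tested.

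Among the synthesis oxidases, the adjusted p was 0.00376 for TraesCS4A03G0796400 and 0.00496 for TraesCS5D03G1210400. Among the gibberellin 2-oxidases, the adjusted p was 4.58e-08 for TraesCS3D03G0675100, 0.000159 for TraesCS6B03G0761500, 0.00172 for TraesCS6D03G0528100, 0.00357 for TraesCS1A03G0827800, 9.03e-08 for TraesCS3A03G0732000, 5.62e-05 for TraesCS3B03G0838600 and 0.0223 for TraesCS6A03G0611100. Among the GID1 receptors, the adjusted p was 4.56e-07 for TraesCS1D03G0613500, 9.92e-07 for TraesCS1A03G0655800 and 3.94e-06 for TraesCS1B03G0743300. Among the DELLA models, the adjusted p was 0.01 for TraesCS4B03G0093100, 5.88e-05 for TraesCS6B03G1147300LC, 0.00477 for TraesCS4A03G0701300 and 0.0138 for TraesCS3A03G0600000. Among the chitin-inducible gibberellin-responsive proteins, the adjusted p was 6.72e-06 for TraesCS2A03G0458700, 2.13e-05 for TraesCS2B03G0579900, 6.79e-05 for TraesCS2D03G0466300, 2.2e-07 for TraesCS2A03G0395300, 5.9e-09 for TraesCS2B03G0526100 and 3.9e-09 for TraesCS2D03G0413100. Among the GASA type genes, the adjusted p was 0.00143 for TraesCS1D03G0648300, 1.73e-08 for TraesCS7D03G0469300, 0.000487 for TraesCS7B03G1304300 and 2.79e-06 for TraesCS7D03G1290900. Among the BRI1-like receptors, the adjusted p was 5.93e-06 for TraesCS3B03G1370800 and 4.79e-05 for TraesCS3D03G1095300. Among the BPG2 models, the adjusted p was 0.00024 for TraesCS5A03G0011300, 3.21e-05 for TraesCS5B03G0011400, 0.0349 for TraesCS5B03G0508200, 7.66e-06 for TraesCS5D03G0025400 and 0.037 for TraesCS5D03G0470800. Outside the members, it was 2.39e-07 for the CYP724B1 gene TraesCS2D03G0759600, 0.0121 for the CYP85A1-like gene TraesCS1A03G0529000, 0.0265 for the GID2-like gene TraesCS3D03G0104000 and 1.9e-05 for the GAMYB gene TraesCS6A03G0327600.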

How the results depend on the processing

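Of 380 values of single genes under another setting, 356 kept their side of the threshold, 20 lost the call, 1 gained it and 3 turned. A turn of direction was counted only where the gene was called in the main or the other setting. Uncalled values that changed sign count among the 356. The 3 that turned did so without day 9, to -0.02 for TraesCS2A03G0458700 and to -0.07 for both TraesCS2B03G0526100 and TraesCS2D03G0413100. Without day 9 the gibberellin models higher in the mean were 8 (14 with it) and the brassinosteroid models lower were 0 (3 with it). With no filter, gibberellin calls of day 21 were 7 (11 with it) and brassinosteroid models lower in the mean were 1. The stricter filter left fewer members to call, and gave 8 gibberellin models higher and 0 lower in the mean, 7 called on day 6, 6 on day 21, 7 on day 27 and 8 for basal day 9 against central day 6, and 5 brassinosteroid models for day 27 against day 6. Brassinosteroid calls of day 6 were 2 with DESeq2 and 0 with limma on log2(FPKM + 1), where 1 was found, and those of day 21 were 2 with that limma setting, where 4 were found. The cause of these shifts was not tested, other than fewer members under the stricter filter.

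With the replicate number as a block, 13 gibberellin models were higher and 4 lower in the mean and 3 brassinosteroid models were lower. The numbers did not pair the samples, since 1 of 16 pairs had a correlation of deviations over 0.1 (-0.11 to 0.126). The block changed no count of gibberellin or brassinosteroid models by over 1.5 times, while the DELLA models higher on day 9 went from 1 to 0, as they also did with the DESeq2-type size factors, with DESeq2 and with no filter. Of all calls in the mean of 6 days, 11535 were higher and 12587 lower, and with limma on log2(FPKM + 0.1) 10281 were higher and 16760 lower, which is 38% higher. The median of all models moved at most to -0.04.

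With 1 library left out, gibberellin counts ranged from 11 to 14 higher and 3 to 5 lower in the mean, 10 to 11 on day 6, 21 to 23 on day 9, 10 to 18 on day 12, 7 to 13 on day 15, 6 to 11 on day 21, 9 to 16 on day 27, 25 to 28 for the change over days, 28 to 30 for day 27 against day 6 and 9 to 15 for basal day 9 against central day 6. The day 12 count was 10 without its basal replicate 2, the day 15 count 7 without its basal replicate 2, the day 27 count 9 without its basal replicate 3 and the last count 9 without replicate 1 of basal day 9. On day 21 the lowest counts came without basal replicate 1 or 2 or central replicate 2 (6) or central replicate 1 (7). Brassinosteroid counts ranged from 0 to 0 higher and 1 to 3 lower in the mean, 1 to 1 on day 6, 2 to 4 on day 9, 3 to 4 on day 12, 1 to 3 on day 15, 0 to 5 on day 21, 2 to 4 on day 27, 5 to 8 for the change, 9 to 9 for day 27 against day 6 and 2 to 3 for the last comparison. The count lower in the mean was 1 without replicate 1 of central day 6, replicate 2 of basal day 15 or replicate 1 of central day 21. The day 9 count was 2 without basal replicate 1 or 2 or central replicate 1 or 3, the day 15 count 1 without either basal library, and the day 21 count 2 without basal replicate 1 and 0 without central replicate 2. Of 107 daily calls of members, 67 were kept whichever library was left out. Where a group was left with 1 library, that library was assumed to vary like the others. Low levels limit the synthesis oxidases and co-receptors most, since small counts carry an uncertain number of fragments.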
